A study of Homo sapiens with 4 samples.

Results

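A stretch of chromosome 11 near 122 Mb holds SORL1, AP001924.1, BLID, MIR100HG and UBASH3B, and its nascent RNA was measured in HCT116 cells with and without auxin. The genes were taken by symbol, 5 of the 60048 human genes in the deposited table. They were chosen because AP001924.1 had been seen to be lower with auxin and the others lie around it. All differences between auxin and control in these 5 genes are therefore given as descriptions, without p-values. How many of them passed the rule applied to all genes is stated below, and nothing is read from it.

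HCT116 is a human colorectal carcinoma line, and the cells carried the genotype RAD21-mAC in both groups, a degron tag on the cohesin subunit RAD21 that leads to its degradation when auxin is present. Both control libraries came from cells given DMSO, the solvent. Treated cells received indole-3-acetic acid, the auxin of plants, at 0.5 mM over 3 h. EU-seq reads newly made RNA, which is labelled with 5-ethynyl uridine (here at 0.5 mM for 20 min), captured and sequenced. There were 2 libraries a group, and nothing in the labels says that they came from separate cultures, so any p-value measures the spread between these libraries, which may be technical. The labels do not say whether the line is 1 clone. As no cells without the tag were analysed here, loss of RAD21 and auxin itself cannot be told apart as sources of a difference. The title of the series asks about cohesin in pause release and in elongation.

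Deposited signal summed to between 61135244 and 93113007 a library, and how many reads stand behind it is unknown. Values below are a scaled signal, the deposited signal divided by 1 factor a library (0.804 to 1.20) so that most genes keep the same level, which removes any change in total nascent RNA. Each library also held RNA of fly S2 cells, 20 µg to 200 µg of human RNA. Whether the deposited values were set by the fly RNA is not given in the sources used here, so what the deposited scale measures is unknown. RAD21 itself lay at 6227 ± 1377 (SD, n = 2) with DMSO and 6139 ± 229.8 (SD, n = 2) with auxin, and since the degron acts on the protein this does not check the labels. The 8 epithelial markers (EPCAM, KRT8, KRT18, KRT19, CDH1, CLDN3, CLDN4 and CLDN7) were present in all libraries, at 109.7 to 2446 scaled signal per kb of span, and their sum was 6740 and 7404 in control and 6329 and 6364 in auxin. The 10 markers of blood, endothelium, fibroblasts, liver and muscle summed to between 43.6 and 71.5 per kb in any library, most of it from COL1A1, with MYOD1 at 0 throughout and COL1A2 at 0 in 1 library. That sum was 43.6 and 54.8 in control and 64.0 and 71.5 in auxin, and its part in the results below was not tested.

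MIR100HG is a long non-coding RNA gene known as the host of 3 microRNAs, miR-100, let-7a-2 and miR-125b-1, which are cut from its transcript and silence messenger RNAs that pair with their seed. It is best known in colorectal cancer cells for a link to resistance to antibodies against the EGF receptor and to WNT signalling. BLID, inside the same RefSeq gene, encodes a small protein that promotes cell death. SORL1 encodes a sorting receptor that directs cargo such as the amyloid precursor protein between the Golgi and endosomes, and UBASH3B (also STS-1) a phosphatase that restrains signalling by tyrosine kinases. AP001924.1 is a long non-coding RNA gene known by its clone name, with no function stated here.

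The mature microRNAs of the MIR100HG cluster are shown with those of the paralogous clusters on chromosomes 21 and 19, since each cluster holds 1 member of each of 3 seed families and the seed decides which messages are silenced. Sequences are from RefSeq (GRCh38.p14), written 5′ to 3′, and capitals mark the seed, bases 2 to 8. Those of MIR100HG come from the minus strand at chr11:122152275-122152296 (miR-100-5p), chr11:122146568-122146589 (let-7a-5p) and chr11:122099809-122099830 (miR-125b-5p).
hsa-miR-100-5p: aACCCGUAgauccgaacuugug
hsa-miR-99a-5p: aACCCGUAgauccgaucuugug
hsa-miR-99b-5p: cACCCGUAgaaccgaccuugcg
hsa-let-7a-5p: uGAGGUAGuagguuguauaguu
hsa-let-7c-5p: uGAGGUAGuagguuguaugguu
hsa-let-7e-5p: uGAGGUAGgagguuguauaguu
hsa-miR-125b-5p: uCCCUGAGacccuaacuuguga
hsa-miR-125a-5p: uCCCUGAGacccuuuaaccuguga

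In the table (GRCh38, positions counted from 1) the 5 genes run over 1362 kb in the order SORL1 (ENSG00000137642, plus strand, chr11:121452314-121633763), AP001924.1 (ENSG00000286023, minus strand, chr11:121979571-122025937), BLID (ENSG00000259571, minus strand, chr11:122115340-122116215), MIR100HG (ENSG00000255248, minus strand, chr11:122154755-122556721) and UBASH3B (ENSG00000154127, plus strand, chr11:122655722-122814473). SORL1, BLID and UBASH3B are protein-coding. Each value covers the whole span, introns included, and none of the 5 spans overlaps another of the 5. RefSeq gives MIR100HG other ends than the table does, and the spans share 268 kb. The RefSeq gene lies at chr11:122028329-122422871, which includes BLID and the 3 microRNAs. The lower end of the span in the table lies 2446 bases past MIR100, so that this span includes none of them. The 126 kb of the RefSeq gene that the table leaves out are thus seen here only through BLID and the microRNAs. AP001924.1 lies on the same strand as MIR100HG, 2391 bases beyond the RefSeq gene's 3′ end and 89.4 kb from BLID. The table does not separate strands: in 4609 of 4609 pairs of a gene inside another on the opposite strand, the outer value was at least as high as the inner in every library.

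AP001924.1 was the member with the widest difference between groups. Its scaled signal was 1606 and 1581 in control replicates 1 and 2, and 306 and 311 in auxin replicates 1 and 2. Both auxin libraries lay far below both control libraries, and within each group the libraries nearly coincided. On the deposited scale the groups were apart too, at 1575 and 1602 in control and 246 and 373 in auxin, but the auxin libraries did not coincide. The means were 1594 ± 17.5 (SD, n = 2) for control and 308 ± 3.5 (SD, n = 2) for auxin, 5.17 times higher in control, and the log2 difference was -2.37 (standard error 0.18, from limma's fit over all genes). Here, as in any bulk sample, fewer cells of a kind and less RNA per cell cannot be told apart.

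The low value of AP001924.1 with auxin is what led to the choice of these genes, so its place among other genes is a description too. Of all 39464 tested genes 30 had a lower log2 difference. Of the 29212 with a mean scaled signal of at least 50, 3 did, and of the 7791 lncRNA genes among them 0 did. Replicates differed by -0.022 in control and 0.023 in auxin on the log2 scale at AP001924.1, where the SD of that difference over the 29212 genes was 0.41 and 0.35. The one gene inside its span, RNU6-256P on the opposite strand, had a scaled signal of at most 15.6 in any library. AP001924.2, which starts 155 bases from its 5′ end on the other strand, was at 0.867 to 6.78, too low to be tested.

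MIR100HG did not follow AP001924.1. Its scaled signal was 12272 and 17056 in control and 15929 and 18658 in auxin. The lower auxin library lay between the controls, so the groups overlapped. The means were 14664 ± 3383 and 17293 ± 1930 (SD, n = 2 each), and the log2 difference of 0.25 (standard error 0.16) depended on which library was left out, at 0.015 when control replicate 1 was dropped and 0.49 when its partner was. With the 4 genes inside its span subtracted, which held at most 0.153% of its signal, the log2 difference was again 0.25.

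BLID, toward the 3′ end of the RefSeq gene, was likewise close between groups. It had 255 and 284 in control and 233 and 260 in auxin, ranges that overlap. The log2 difference was -0.13 (standard error 0.22). BLID carried the densest signal of the 5 genes. Its span is only 0.876 kb and lies inside the RefSeq gene MIR100HG on the same strand, so their signals cannot be parted. The short microRNA spans of the same RefSeq gene were denser still in control, MIR125B1 at 500, MIRLET7A2 at 459 and MIR100 at 410 per kb. The density of BLID is thus not read as its own transcription.

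**Figure D1:**
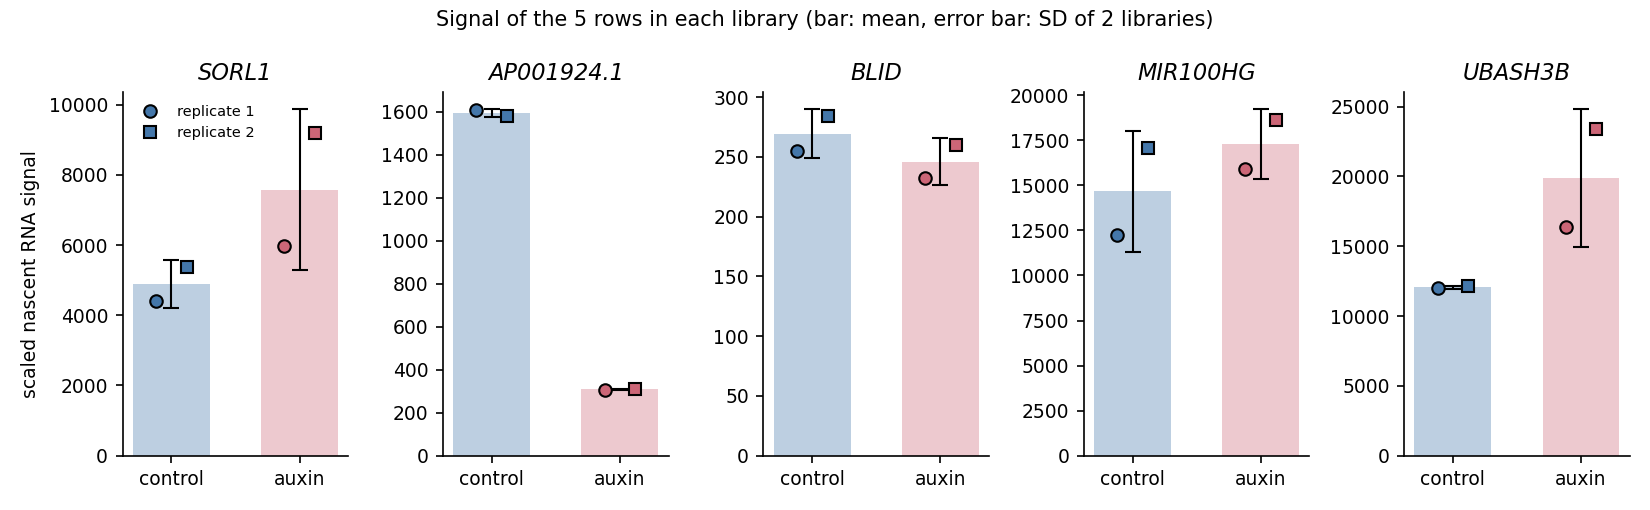
Scaled nascent RNA signal (y axis, a scale of its own for each gene, from 0) in control and auxin libraries for the 5 genes in order of position; points are libraries, bars means and error bars the SD of 2 libraries. AP001924.1 is at 1594 in control and 308 in auxin, SORL1 and UBASH3B have both auxin libraries above both controls, and BLID and MIR100HG overlap.

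SORL1 was higher in both auxin libraries. Its signal was 4408 and 5373 in control and 5967 and 9199 in auxin, the upper auxin library standing well above the other. The means were 4891 ± 682 and 7583 ± 2285 (SD, n = 2 each), with a log2 difference of 0.61 (standard error 0.20). It was 0.29 without auxin replicate 2 and 0.91 without auxin replicate 1. On the deposited scale, with 4323 and 5442 in control and 4799.5 and 11058 in auxin, the groups overlapped.

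UBASH3B lay at 11994 and 12145 in control and at 16380.5 and 23354 in auxin. The controls nearly coincided and both auxin libraries were above them, as they were on the deposited scale, where the values were 11761 and 12302 in control and 13175 and 28075 in auxin. The means were 12069 ± 107 and 19867 ± 4931 (SD, n = 2 each), the log2 difference 0.70 (standard error 0.16), and 0.43 without auxin replicate 2. Its span contains AP002762.1 and AP002762.3 and overlaps AP002762.2, all on the opposite strand, and their signal cannot be parted from its own.

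By the rule of limma with a Benjamini-Hochberg adjusted p under 0.05, 1 of the 5 genes, AP001924.1, passed, beside 0.689% of the 39464 genes tested. None of the 5 was called higher, where 0.319% of all tested genes were, and 1 was called lower, where 0.37% were. Both auxin libraries were above both controls at 2 genes (18.6% of all tested) and below them at 1 (19.5% of all tested). As the genes were picked on this contrast, nothing is read from these counts.

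Levels can be compared between genes only per length. In control, signal per kb of span was 308 ± 23.4 for BLID, 76.0 ± 0.675 for UBASH3B, 36.5 ± 8.42 for MIR100HG, 34.4 ± 0.377 for AP001924.1 and 27.0 ± 3.76 for SORL1 (SD, n = 2 each). BLID, a short span whose signal cannot be parted from that of the RefSeq gene MIR100HG, and UBASH3B stood apart. The 2 libraries of MIR100HG (30.5 and 42.4) enclosed those of AP001924.1 (34.6 and 34.1) and reached near SORL1 (24.3 and 29.6). In auxin the order was BLID at 281 ± 22.0, UBASH3B at 125 ± 31.1, MIR100HG at 43.0 ± 4.80, SORL1 at 41.8 ± 12.6 and AP001924.1 at 6.65 ± 0.0756. By its mean AP001924.1 came just before SORL1 in control and after it, last of the 5, in auxin. The auxin libraries of SORL1 enclosed those of MIR100HG.

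Ratios within a library do not depend on how libraries are scaled. AP001924.1 came to 13.1% and 9.27% of the MIR100HG signal in control and to 1.92% and 1.66% in auxin. Both auxin libraries were below both controls by a wide gap. BLID was at 2.08% and 1.66% of MIR100HG in control and 1.46% and 1.39% in auxin, also without overlap but close. UBASH3B was at 97.7% and 71.2% in control and 103% and 125% in auxin, and SORL1 at 35.9% and 31.5% against 37.5% and 49.3%.

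**Figure D2:**
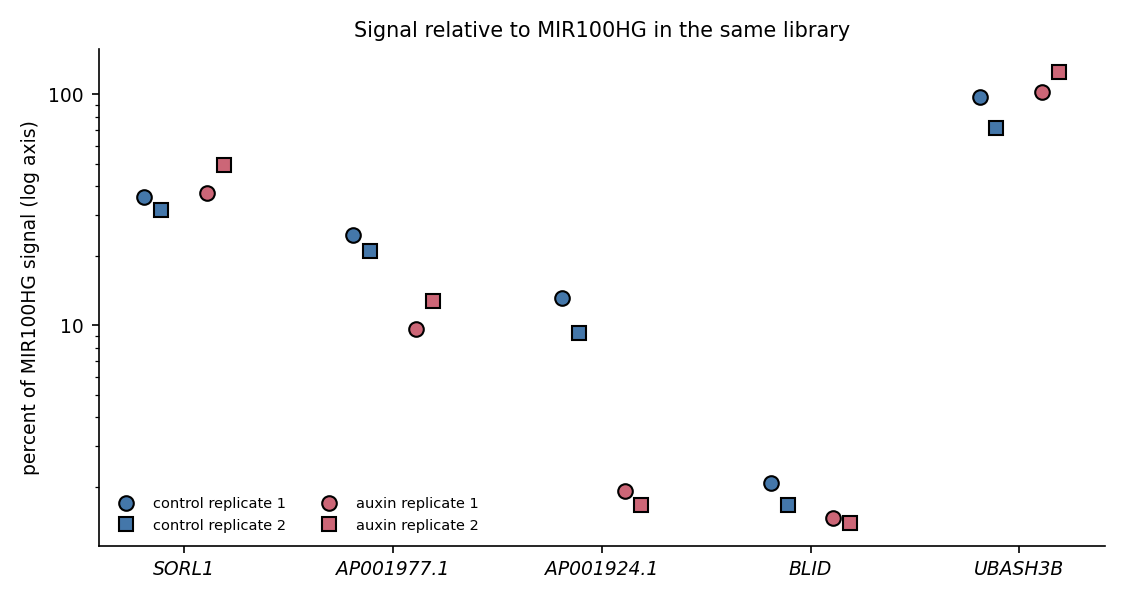
Signal of 4 of the genes and of the neighbouring lncRNA gene AP001977.1 as a percent of MIR100HG in the same library (log axis); each point is 1 library. AP001924.1 is at 13.1% and 9.27% in control and 1.92% and 1.66% in auxin, while SORL1 and UBASH3B shift upward by less.

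Of the 3 microRNA genes of the cluster, whose host is MIR100HG, 0 passed by limma, and 0 had an unadjusted p under 0.05. MIR100, the gene of miR-100, had a scaled signal of 32.8 and 32.8 in control and 30.8 and 32.8 in auxin. MIRLET7A2 had 25.1 and 41.0 in control and 23.5 and 24.9 in auxin, and MIR125B1 had 50.1 and 37.9 against 23.5 and 42.9. The log2 differences were -0.046, -0.39 and -0.44, with limma adjusted p-values of 0.993, 0.888 and 0.858. These spans of 72 to 88 bases show signal over the hairpin in nascent RNA, not the amount of mature microRNA.

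With the paralogous clusters and their host MIR99AHG the list had 10 genes, of which 7 were tested and 0 passed by limma (0 at an unadjusted p under 0.05), 3 above 0 and 4 below, with a median log2 difference of -0.046 against 0.0087 over all tested genes. MIR99A, MIRLET7C and MIR125B2 on chromosome 21 were listed at 0 in all 4 libraries. MIR99AHG around them had 372 to 470, a mean of 0.629 per kb in control and 0.606 in auxin. At that level spans of 0.081 to 0.089 kb hold almost no signal. The lowest p was that of MIR125A, at 34.6 and 31.8 in control and 40.7 and 55.4 in auxin (log2 difference 0.51, limma adjusted p = 0.771). The 3 genes above 0 were MIR125A, MIR99B and MIRLET7E, which all overlap SPACA6P-AS on chromosome 19. Their signal cannot be parted from that of SPACA6P-AS.

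Among 6 genes that the literature ties to MIR100HG and its microRNAs in colorectal cancer cells, GATA6 and the WNT inhibitors DKK1, DKK3, ZNRF3, RNF43 and APC2, 1 passed the test, beside 0.689% of all tested genes, and the median log2 difference was -0.18. RNF43, a ubiquitin ligase that removes WNT receptors from the cell surface, fell from 17935 and 20338 in control to 10119 and 11265 in auxin, with no overlap. The log2 difference was -0.84 (standard error 0.12, limma adjusted p = 0.0160), and the call was lost without control replicate 2 (adjusted p = 0.125) and on the deposited scale, where the adjusted p rounds to 1. Over all alternatives it ran from 1.06e-14 to that value, and some of these fits did not use each gene's own spread. The span of RNF43 lies within that of AC004687.2 on the same strand, and their signals cannot be parted. ZNRF3, its paralogue, named after its values were seen, had 19911 and 16916 in control and 12531 and 14101 in auxin, and did not pass (log2 difference -0.47, adjusted p = 0.173).

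Genes that work with UBASH3B and SORL1 gave no call. Of 7 around UBASH3B, its paralogue UBASH3A, the ubiquitin ligases CBL, CBLB and CBLC, and the kinases SYK, ZAP70 and EGFR, all were tested and 0 passed by limma (0 at an unadjusted p under 0.05), 5 being above 0 and the median log2 difference 0.11. SYK, a kinase that UBASH3B acts on, had the lowest p, at 2970.0 and 2813 in control and 3323 and 3512 in auxin (log2 difference 0.24, limma adjusted p = 0.667). Of 13 around SORL1, the related receptors SORT1, SORCS1, SORCS2 and SORCS3, the retromer subunits VPS26A, VPS26B, VPS29 and VPS35, and APP, BACE1, GGA1, GGA2 and GGA3, 0 passed by limma (1 at an unadjusted p under 0.05, where 10.1% of all tested genes had one), 10 being below 0 and the median -0.043. GGA2, an adaptor at the Golgi, came lowest in p, at 11865 and 12507 in control and 8343 and 9986 in auxin (log2 difference -0.42, limma adjusted p = 0.246).

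The surroundings were taken as all genes of the table from 2 Mb before SORL1 to 2 Mb after UBASH3B, which are 142 besides the 5. Of these, 51 were at 0 in all libraries and 66 were tested. By limma 0 passed, where 0.689% of all tested genes did, and 11 had an unadjusted p under 0.05, where 10.1% of all tested genes did. The 6 higher ones were POU2F3, TECTA, AP002762.3, AP002762.2, JHY and GRAMD1B, and the 5 lower ones USP2-AS1, KRT8P7, AP001977.1, CLMP and AP001970.1. Of the higher ones, AP002762.3 lies inside the span of UBASH3B and AP002762.2 overlaps it. Their signal cannot be parted from that of UBASH3B, so they are not independent of the 5. The tested genes divided evenly, 33 above 0 and 33 below, with a median log2 difference of -0.0024 and a range of -1.27 to 0.93. AP001924.1 at -2.37 lay below that range, but it was chosen for its low value, so nothing is read from this. Both auxin libraries were above both controls at 12 genes (18.6% of all tested genes were) and below at 12 (19.5% of all tested). The nearest tested genes on each side that overlap none of the 5 were BMPR1AP2 and CRTAM. BMPR1AP2, a pseudogene before SORL1, was at 0.15 and CRTAM, an immune receptor gene after UBASH3B, at -0.14 (limma adjusted p = 0.967 and 0.964). The span of CRTAM overlaps that of AP002762.2, so their signals cannot be parted.

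AP001977.1 is named here after its values were seen. It is the lncRNA gene on the plus strand that fills most of the interval between SORL1 and AP001924.1 (chr11:121674261-121928976), ending 50.6 kb from AP001924.1. Its signal was 3005 and 3594 in control and 1535 and 2388 in auxin, without overlap. The log2 difference was -0.78 (standard error 0.21), and it did not pass (limma adjusted p = 0.178). Without auxin replicate 2 the log2 difference was -1.11. With the replicate number as a block its adjusted p was 1.95e-09, and on the deposited scale it rounds to 1. Both fits did not use the gene's own spread.

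AP002762.2, which overlaps the end of UBASH3B and is also named after its values were seen, had 3678 and 3886 in control and 5399 and 6222 in auxin (log2 difference 0.62, limma adjusted p = 0.105). With the replicate number as a block its adjusted p was 6.58e-07, and on the deposited scale it rounds to 1. Again neither fit used the gene's own spread. GRAMD1B, a gene for a cholesterol transport protein, named after its values were seen, had 4031 and 2614 in control and 6809 and 5419 in auxin. Its log2 difference was 0.90 (limma adjusted p = 0.107), and 1.06 without auxin replicate 2. In the same 2 kinds of fit the adjusted p of GRAMD1B was 1.84e-14 with the block and rounds to 1 on the deposited scale.

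**Figure D3:**
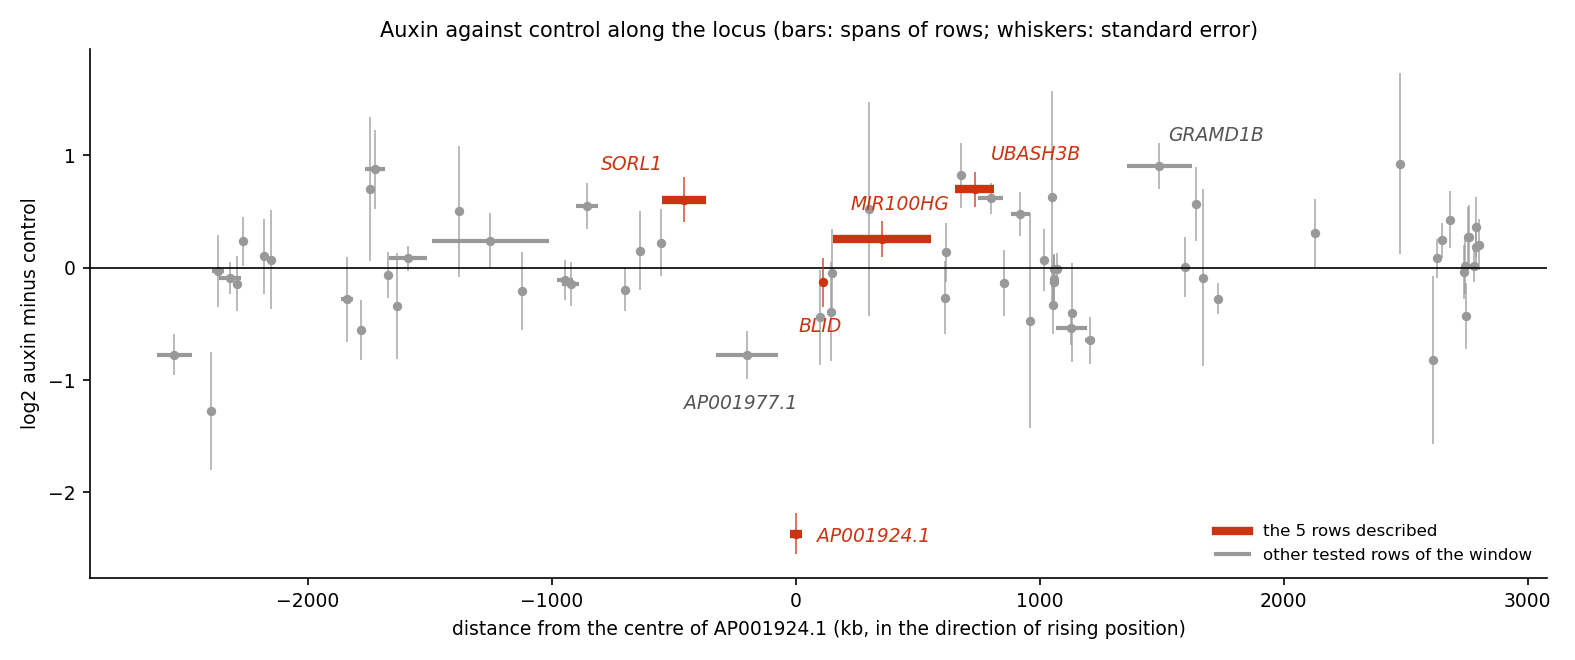
Log2 difference of auxin minus control (y axis) against distance from the centre of AP001924.1 (x axis, kb) for the 5 genes (red) and the 66 other tested genes (grey); horizontal bars are gene spans and whiskers standard errors of the fit. AP001924.1, chosen for its low value, lies at -2.37, below all the grey points, whose lowest is -1.27.

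Promoter sequences are shown for SORL1 and UBASH3B, the members with both auxin libraries above both controls, and for the outermost RefSeq start of MIR100HG, where the groups overlapped. The span counted for MIR100HG begins 133.85 kb upstream of that RefSeq start, so this window lies inside the span and is not the promoter of what was counted. AP001924.1 and BLID had no promoter sequence in the set used. Each is the 250 bases before the start in RefSeq (GRCh38.p14), 5′ to 3′ on the gene's strand, with CG pairs in capitals: chr11:121452064-121452313 (plus), chr11:122655472-122655721 (plus) and chr11:122422872-122423121 (minus).
SORL1: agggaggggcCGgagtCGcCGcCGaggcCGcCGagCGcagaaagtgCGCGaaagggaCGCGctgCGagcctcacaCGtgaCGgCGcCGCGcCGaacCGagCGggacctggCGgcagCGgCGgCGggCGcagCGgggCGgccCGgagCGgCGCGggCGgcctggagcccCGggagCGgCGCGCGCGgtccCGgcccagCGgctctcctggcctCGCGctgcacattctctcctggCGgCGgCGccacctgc
UBASH3B: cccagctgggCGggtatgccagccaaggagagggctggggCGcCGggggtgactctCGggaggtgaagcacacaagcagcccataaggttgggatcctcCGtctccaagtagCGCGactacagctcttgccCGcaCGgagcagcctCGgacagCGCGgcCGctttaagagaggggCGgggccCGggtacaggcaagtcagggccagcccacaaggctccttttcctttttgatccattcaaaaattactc
MIR100HG: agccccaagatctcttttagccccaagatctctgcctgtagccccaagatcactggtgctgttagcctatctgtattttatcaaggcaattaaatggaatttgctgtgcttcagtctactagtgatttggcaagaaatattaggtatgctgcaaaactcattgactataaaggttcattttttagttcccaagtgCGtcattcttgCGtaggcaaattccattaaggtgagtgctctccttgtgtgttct

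The SORL1 window held 45 CG pairs, more than 99.4% of 35116 promoter windows, the UBASH3B window 15 and the MIR100HG window 2, where the median was 11. The other 5 RefSeq starts of MIR100HG held 2 to 8.

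The profile of AP001924.1 over the 4 libraries was set beside 29211 other tested genes with a mean of at least 50, by the Euclidean distance between log2 values centred on each gene's mean. The 5 nearest were IRS1 (distance 0.313), which encodes the main adaptor of the insulin receptor, IRS2 (0.452), its paralogue, ADAMTS14 (0.481), a protease of the extracellular matrix, HS3ST1 (0.482), an enzyme that sulfates heparan sulfate, and the lncRNA gene AC010735.2 (0.545). Their log2 differences were -2.06, -1.96, -2.68, -1.94 and -2.12. IRS1, the nearest, had 11667 and 12161 in control and 2865 and 2848 in auxin. IRS1 and AC010735.2 lie side by side on chromosome 2, on opposite strands and without overlap of their spans. Whether signal runs across both was not tested. With 4 libraries the measure finds genes with a like difference and like replicates, and says nothing more.

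**Figure D4:**
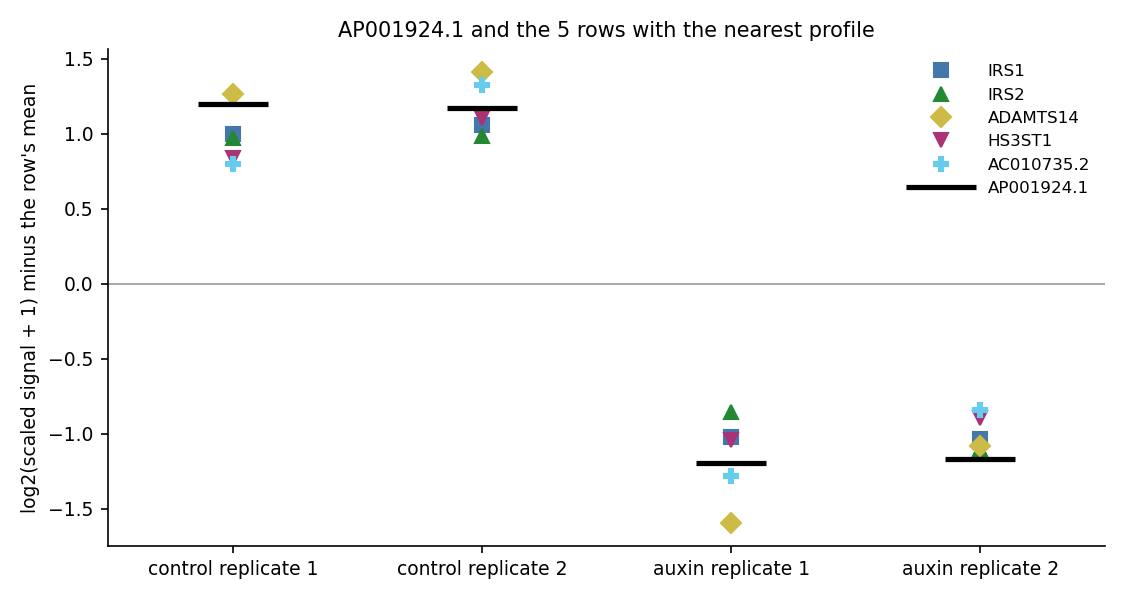
Log2(scaled signal + 1) minus the gene's own mean (y axis) in each library for AP001924.1 (black bars) and the 5 genes nearest to it (symbols). All 6 are above 0 in both control libraries and below 0 in both auxin libraries.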

How the data were processed

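Values come from 1 table that the authors deposited, with a signal per gene and library. Per the submitters' processing notes, Trimmomatic 0.39, Bowtie2 2.4.5 and deepTools 3.5.1 and the builds hg38 and dm6 were used. Annotation, strand setting and the factor of each library are not given in the sources used here. The deposited signal of low genes was in whole multiples of 1 step per library (100% of values up to 20 steps, within 0.03), but genes of at least 10 kb almost never held 1 step (2 to 8 a library, against 141 to 221 at 2 steps), so steps were not taken as reads. A column with a misspelt name was read as control replicate 2. Starts count from 0 in the table: 19990 of 37746 matched starts lay 1 base below RefSeq's.

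With limma 3.58.1 in R 4.3.3, a gene was tested if at least 2 libraries reached 10, as set for the library of median total, and its sum reached 15. Scaling used trimmed mean M-values, unweighted, with 30% of log ratios and 5% of levels cut from either end. The fit compared auxin with control on log2 of the scaled value plus 1, with an intensity trend and nothing else in the model. Benjamini-Hochberg adjustment ran over all tested genes, at 0.05. Log2 differences understate low genes. In simulated data of 39464 genes with 200 changed, the fit recovered 90.0% of 4-fold changes, where 7.13% of calls were false. For 2-fold changes it recovered 24.2%, where 7.65% were. Only genes with a mean level above 50 were changed. Spreads were drawn from the fit's own estimate, and noise was independent between libraries. These rates therefore do not cover lower genes or differences shared between libraries.

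The genes and lists were chosen with earlier results of these data known. Named by rule besides the 5 genes were window genes past the threshold, of which there were 0, the nearest tested gene on each side, the lowest p and any call of each list, and the 5 most like AP001924.1. Other genes were named after their values were seen.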

Additional observations from a re-analysis of the deposited data

How the results depend on the processing

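Over all alternatives the log2 difference of AP001924.1 stayed between -2.39 and -2.33 and that of BLID between -0.22 and -0.052. Leaving out 1 library moved the others most: MIR100HG ranged from 0.015 to 0.49 (without the genes inside it from 0.014 to 0.49), SORL1 from 0.29 to 0.91 and UBASH3B from 0.43 to 0.95. The count over the table, 272 genes (126 higher, 146 lower), ranged from 57 (without control replicate 2) to 678 (without auxin replicate 1) when 1 library was left out, that of the window from 0 to 4 (POU2F3, OAF, KRT8P7 and USP2-AS1 without auxin replicate 1), and that of the list around MIR100HG in colorectal cancer from 0 to 1. On the deposited scale 55 genes were called (28 higher, 27 lower), 47 of them among the 272, and 0 of that list; the cause was not tested. A replicate block in the model gave 4220 calls over the table, with 12 in the window, 2 in the list around MIR100HG and 1 (GGA2) in that around SORL1. No label ties the replicate numbers to a day or batch, and pairing cannot be settled from 2 pairs; the differences between replicates 1 and 2 correlated across genes between the groups at r 0.231 over all tested genes and 0.462 over those with a mean of at least 50. Signs turned at genes near 0 when 1 library was left out, BMPR1AP2 ranging from -0.18 to 0.48, CRTAM from -0.33 to 0.052 and RAD21 from -0.23 to 0.22, and RAD21, -0.0031 as reported, was 0.0010 with median-ratio scaling and 0.032 with scaling by total. With 1 library left out, the lone library is assumed to vary like the other group. limma blends each gene's own spread with the trend over all genes. With the replicate block, on the deposited scale or without either auxin library, only the trend was used (infinite prior degrees of freedom, 7.89 in the main fit). The p-values and counts of those fits therefore do not weigh a gene's own spread, and they add no support to a difference. Depth in reads is unknown.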
